A study of Mus musculus with 16 samples.

Results

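Follicle primordia of embryonic mouse skin were set against the non-follicle skin around them in a design of 2 tissues by 2 positions. In the epithelium Pc, read from general knowledge of the study as the hair placode, was compared with Epi, the interfollicular epidermis. In the dermis DC, the dermal condensate, was compared with Fb, the fibroblasts outside it. The 8 libraries of these fractions were chosen by their names from the 16 of the series, 2 per fraction, so the follicle side (Pc and DC) and the non-follicle side (Epi and Fb) hold 4 libraries each. All come from skin at embryonic day 14.5, separated by fluorescence-activated cell sorting. The labels used here state no strain, no genotype and no surface marker for the sort, and a difference in a sorted-on gene would be no result. No label says that replicates came from separate embryos or litters, and p-values therefore measure only the spread between these samples, which may be technical.

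A hair follicle starts as a joint structure of both tissues. Epidermal cells thicken into a placode in response to Wnt and ectodysplasin signals, the placode sends FGF and hedgehog signals to the fibroblasts below, and those fibroblasts gather into a condensate that becomes the dermal papilla. The same signal can therefore be received on both sides, while other programmes, such as proliferation, differ between the sides. The design separates a follicle effect that both tissues share from one that depends on the tissue, which is the tissue by follicle interaction.

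Values are FPKM as the authors deposited them (fragments scaled by transcript length and library size), and differences are on the log2(FPKM + 1) scale, which understates the change of genes with low values. Summed FPKM was between 455108 and 606437 in the 8 libraries. The depth in fragments is unknown, but values near 0 fall on steps of 1 fragment, and these steps in Epi replicate 2 and both Pc libraries were between 0.435 and 0.574 of the Fb step of the same replicate number, so low values there rest on more fragments. Replicates of a fraction correlated at Pearson's r between 0.939 (Fb) and 0.979 (Epi) across genes, which are not independent. The fractions carried the markers of their tissue. Krt5, a basal keratin, was at 1649 and 1136 FPKM in Pc and 1355 and 1104 FPKM in Epi, against 9.64 to 25.1 FPKM in the dermal libraries, and the fibroblast receptor gene Pdgfra was at 81.7 and 101.4 FPKM in DC and 116 and 149 FPKM in Fb, against 1.31 to 1.68 FPKM in the epithelial libraries. Sox2, a condensate marker with a wide locus in the file, was at 0.116 and 0 FPKM in Pc and at most 0.0557 FPKM in Epi and Fb, and at 25.1 and 19.4 FPKM in DC. In bulk samples like these, fewer cells of a type and less RNA per cell cannot be told apart.

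The follicle difference was far larger in the dermis than in the epithelium, and the tissues moved together for few genes. Of 14171 rows tested, 216 (1.52%) were called between Pc and Epi, 22 (0.155%) higher and 194 (1.37%) lower in Pc. Between DC and Fb 2172 (15.3%) were called, 868 (6.13%) higher and 1304 (9.2%) lower in DC. The 216 became 67 without Pc replicate 2, 79 without Epi replicate 2, 107 without Epi replicate 1 and 368 with the replicate number as a block. A call required a limma adjusted p under 0.05 and a difference of at least 1. The median size of the difference over all rows was 0.18 in the epithelium and 0.38 in the dermis. Across the 14171 rows the Pc minus Epi and DC minus Fb differences correlated at Pearson's r of -0.0997, a description only, since the genes share libraries. The tissue by follicle interaction was called in 1995 rows (14.1%). The follicle difference was more positive in the dermis in 835 of them (5.89%) and more negative there in 1160 (8.19%). The 2 differences had opposite signs in 532 of the 835 and 911 of the 1160. Selecting rows on the gap between the 2 favours opposite signs, so these counts are a description only. Of these rows 574 of the 835 and 978 of the 1160 were called only between DC and Fb. The plot of one difference against the other shows the points spread mostly along the dermal axis.

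**Figure D1:**
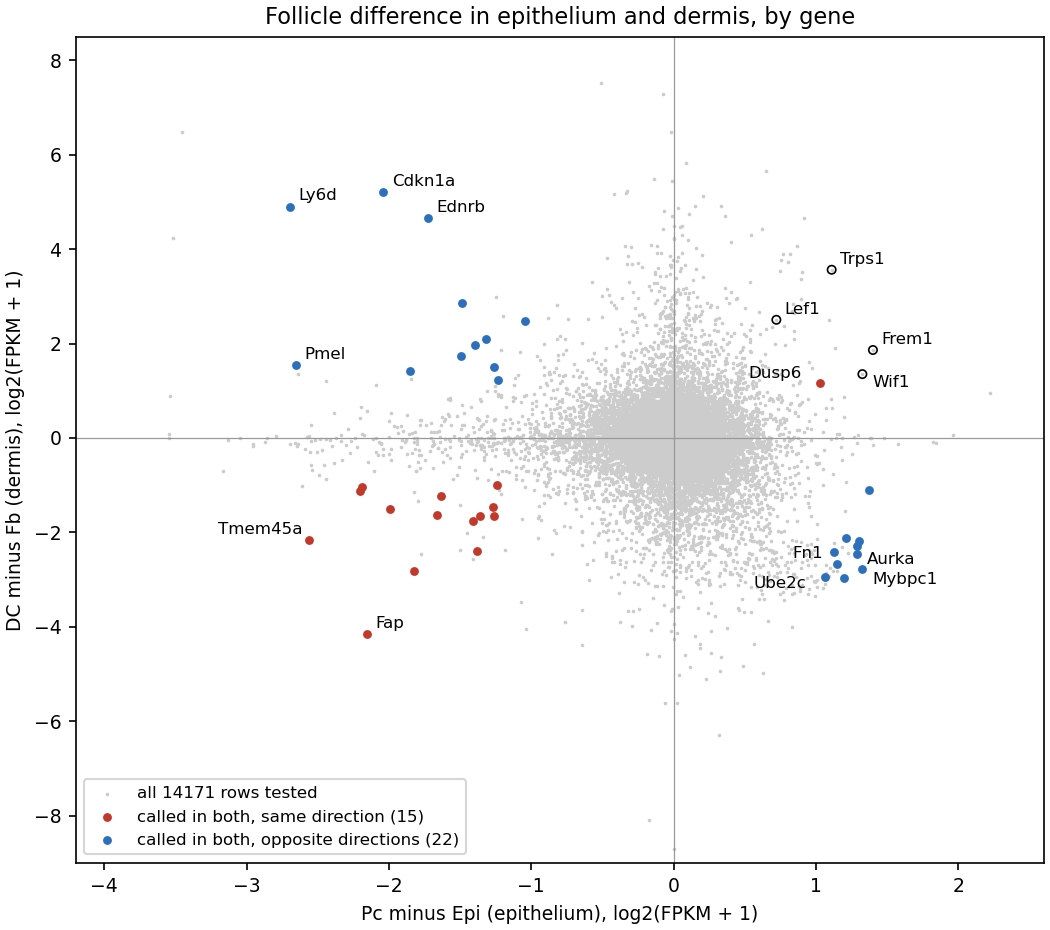
Each point is a gene, with Pc minus Epi on the horizontal and DC minus Fb on the vertical axis, both as log2(FPKM + 1) differences of fraction means (2 libraries each); 11 rows lie outside the plotted range. Red points were called in both tissues in the same direction (15), blue points in opposite directions (22), and open circles name genes called only between DC and Fb.

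The average of both differences is the main follicle effect of the design. It was called in 754 rows (5.32%), 308 (2.17%) higher and 446 (3.15%) lower on the follicle side. The average uses the same libraries as the differences it joins, so the following counts only say which tissue carried it. Of the 308 higher rows 306 were called between DC and Fb and 2 between Pc and Epi. Of the 446 lower rows 378 were called between DC and Fb and 69 between Pc and Epi. Both tissues differed in the same direction in 193 (62.7%) of the higher and 252 (56.5%) of the lower rows, by at least 0.5 in both tissues in 57 (18.5%) and 74 (16.6%), and by at least 1 in 6 (1.95%) and 27 (6.05%).

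The 6 rows with the largest called higher averages had most of their difference in the dermis. They were Gal, a neuropeptide gene, the transcription factor genes Sox18 and Foxd1, the Notch ligand gene Dll1, Vat1l, and the chemokine receptor gene Cxcr4. Foxd1 was at 0.140 and 0.151 FPKM in Pc and 0.224 and 0.0998 FPKM in Epi, and at 249.8 and 101.3 FPKM in DC against 0.840 and 0.722 FPKM in Fb. Its average of 3.24 (SE 0.31, limma adjusted p = 6.69e-05) came from a dermal difference of 6.49 and an epithelial one of -0.02. Cxcr4 and Dll1 also leaned the same way in the epithelium, by 0.91 and 0.65, neither called (limma adjusted p = 0.299 and 0.815). Dpt, a matrix gene at 4.09 and 3.64 FPKM in DC against 229.6 and 245 FPKM in Fb, was among the rows with the largest negative averages (-2.84), again with an epithelial difference near 0 (-0.06). The other rows at that end were Malat1, Mir199b, Snora21, Snora17 and Fap. Malat1, Snora21 and Snora17 are listed at exactly 0 in both DC libraries, and Mir199b in all libraries but those of Fb among the 8, so no fold is given for them. The loci of Mir199b, Snora21 and Snora17 in the file are far wider than the genes and overlap Dnm1, Rpl23 and Snhg7.

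A direction shared by both tissues was tested with the larger of the 2 within-tissue p-values, adjusted over all rows. By this limma test no gene was called (0%), the smallest adjusted p being 0.1141. At an unadjusted p under 0.05 in both tissues, 199 rows shared their direction and 31 of these differed by at least 1 in both. With the replicate number as a block 8 genes were called, all lower on the follicle side: Fap, Fos, Nav3, Nebl, Scara5, Scpep1, Tmem45a and Zfp185. In every other alternative the count stayed at 0. A looser rule, chosen after the values were seen, takes the genes called in each tissue by its own adjusted p. It gave 15 genes (0.106%), 1 higher (0.00706%) and 14 lower (0.0988%) in both. The 15 became 4 without Pc replicate 2, 8 without Epi replicate 1, 5 without Epi replicate 2 and 29 with the block.

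The gene higher in both was Dusp6, on chromosome 10 (99263231 to 99267489, mm10). It encodes a phosphatase that inactivates ERK kinases and is induced by FGF signalling. Dusp6 was at 20.9 and 22.3 FPKM in Pc against 9.39 and 10.9 FPKM in Epi, and at 34.8 and 31.9 FPKM in DC against 16.2 and 12.5 FPKM in Fb. The follicle libraries were above their non-follicle counterparts in each tissue without overlap, a description only, since Dusp6 was picked by its calls in both tissues. The differences were 1.02 (SE 0.22, limma adjusted p = 0.0327) in the epithelium and 1.17 (SE 0.22, limma adjusted p = 0.00192) in the dermis. They averaged 1.10 (SE 0.15, limma adjusted p = 0.000647), and they differed from each other by 0.15 (SE 0.30, limma adjusted p = 0.857 for the interaction). The average was called in every alternative. The Pc call was lost when the pseudocount was lowered to 0.1, when the fit held no other fraction and without any 1 of the 4 epithelial libraries, and the DC call without Fb replicate 2. By the stricter test of a shared direction the limma adjusted p of Dusp6 was 0.624, and 0.0700 with the replicate block. In the other fractions of the series Dusp6 averaged 38.1 ± 1.32 FPKM in DCSch, 19.0 ± 5.09 in Sch, 16.3 ± 2.36 in Mc and 14.3 ± 1.39 in Neg (SD, n = 2 each). DCSch, by its name a joint fraction with the condensate, also carried the condensate list. That list summed to 1866 and 2032 FPKM there, against 573.9 and 650 FPKM in Fb. Sch replicate 2, at 22.6 FPKM, reached the level of the Pc libraries, and the DC libraries lay above those of Sch, Mc and Neg.

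Among the 12 tested genes of FGF response, 11 were positive in each tissue, 1 of them called in Pc (Dusp6) and 6 in DC. Over all rows 0.155% were called higher in Pc and 6.13% higher in DC. The median difference was 0.48 in the epithelium, where all rows had a median of 0.00, and 1.04 in the dermis, also against 0.00. The ETS factor gene Etv5, a standard readout of FGF signalling, was at 20.8 and 23.9 FPKM in Pc against 11.5 and 10.02 FPKM in Epi. In the dermis it was at 44.1 and 39.1 FPKM in DC against 30.6 and 27.1 FPKM in Fb. Its difference of 0.99 in the epithelium (SE 0.20, limma adjusted p = 0.0262) lay just under the size required for a call. The feedback inhibitor genes Spry1 and Spry2 had called interactions of opposite sign. Spry1 measured 115 and 66.6 FPKM in DC against 27.7 and 14.7 FPKM in Fb, and 8.67 and 9.11 FPKM in Pc against 8.29 and 6.28 FPKM in Epi. Spry2 ran the other way in the dermis, with 4.50 and 4.28 FPKM in DC against 29.8 and 23.2 FPKM in Fb, while Pc had 5.07 and 6.82 FPKM and Epi 4.50 and 4.40 FPKM. Their interactions were 1.8 for Spry1 (limma adjusted p = 0.0323) and -2.68 for Spry2 (limma adjusted p = 0.000970). The Spry1 interaction was not called without any 1 of the 4 epithelial libraries, without DC replicate 1 or without Fb replicate 2, where Spry1 also lost the call on the average. Of the list's 12 genes, 3 had a called interaction more positive in the dermis (Spry1, Il17rd and the phosphatase gene Dusp4) and 1 a more negative one. The shares of all rows were 5.89% and 8.19%. Of the ligand and receptor genes, 14 tested, Fgf20 was called higher in Pc and Fgf10 higher in DC, and 3 were called lower in DC. A lower level in DC was called in 9.2% of all rows. Fgf20, a placode signal, was at 3.59 and 3.93 FPKM in Pc against 1.30 and 0.444 FPKM in Epi and listed at 0 in all DC and Fb libraries. Fgf10, a mesenchymal ligand, was at 69.1 and 116 FPKM in DC against 5.29 and 7.74 FPKM in Fb, and did not exceed 0.270 FPKM in Pc or Epi.

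Apart from Dusp6, 5 genes differed by at least 1 in both tissues and had a called average that was higher on the follicle side: Frem1, Wif1, Rtn1, Trps1 and 2610307P16Rik. They were singled out after the values were seen. Frem1, a matrix protein gene of the basement membrane zone, was at 16.1 and 13.5 FPKM in Pc against 5.92 and 4.14 FPKM in Epi, and at 201 and 324 FPKM in DC against 62.5 and 76.9 FPKM in Fb. Wif1, a secreted inhibitor that binds Wnt proteins, was at 4.79 and 2.51 FPKM in Pc against 1.43 and 0.332 FPKM in Epi, and at 89.6 and 83.8 FPKM in DC against 33.1 and 33.6 FPKM in Fb. Neither gene overlapped between position groups within a tissue, although their levels in the dermis were far above those in the epithelium. Since both were picked by the size of their differences, the separation is a description only. Trps1, a GATA-type repressor whose loss in humans gives sparse hair, was at 4.77 and 5.14 FPKM in Pc against 1.42 and 2.14 FPKM in Epi, and at 51.4 and 100.3 FPKM in DC against 3.92 and 6.71 FPKM in Fb. Rtn1, a gene of the endoplasmic reticulum, was at 12.5 and 21.9 FPKM in Pc against 7.29 and 6.77 FPKM in Epi, and at 41.5 and 29.7 FPKM in DC against 6.74 and 10.9 FPKM in Fb. The averages were 1.63 for Frem1 (SE 0.23, limma adjusted p = 0.000650), 1.34 for Wif1 (SE 0.23, limma adjusted p = 0.00255), 2.34 for Trps1 (SE 0.26, limma adjusted p = 0.000144) and 1.52 for Rtn1 (SE 0.25, limma adjusted p = 0.00178). The epithelial differences alone missed the threshold, at limma adjusted p = 0.0539 for Frem1, 0.0797 for Wif1, 0.242 for Trps1, 0.204 for Rtn1 and 0.163 for 2610307P16Rik. With the replicate block Frem1 (limma adjusted p = 0.0159), Wif1 (0.00762), Trps1 (0.00293) and 2610307P16Rik (0.0175) were called in the epithelium too, and Rtn1 (0.0528) was not. Trps1 also had a called interaction of 2.45 (limma adjusted p = 0.00640), since the dermal difference of 3.56 exceeded the epithelial one of 1.11. The dermal call of Wif1 was lost with a pseudocount of 0.1, without DC replicate 1 and without either Fb replicate.

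**Figure D2:**
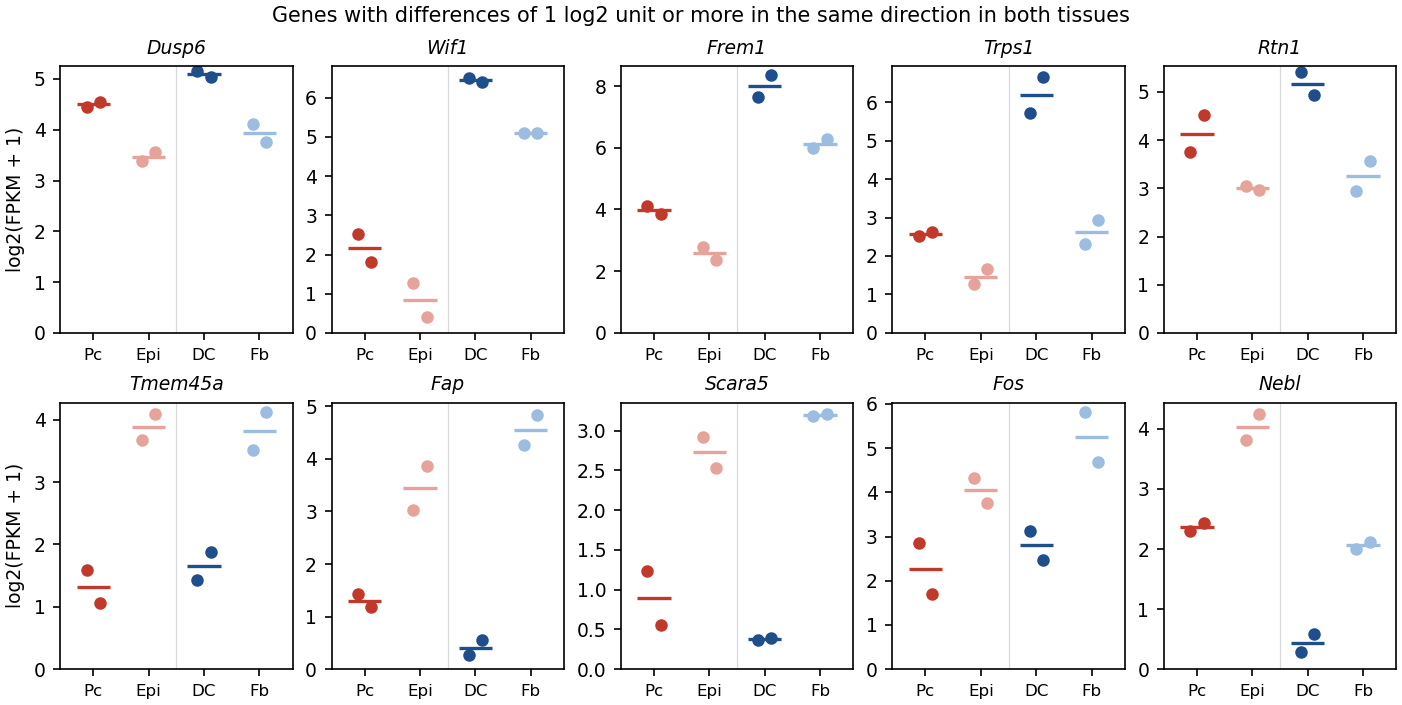
Log2(FPKM + 1) of 10 genes whose differences were at least 1 in the same direction in both tissues, with a point per library (2 per fraction) and a bar at the mean. In the top row Pc lies above Epi and DC above Fb, as for Dusp6 at 20.9 and 22.3 FPKM in Pc against 9.39 and 10.9 in Epi; in the bottom row the follicle fractions lie below.

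More genes were called lower than higher on the follicle side of both tissues, as in each tissue alone. Over all rows 1.37% were called lower and 0.155% higher in Pc, and 9.2% lower and 6.13% higher in DC. Whether the 15 genes exceed the overlap of unrelated calls was not tested. The 14 called in each tissue included Ablim1, Ces2g, Dpp4, Fam57a, Fap, Metrnl, Mgst1, Nav3, Nebl, Scara5, Scpep1, Tmem45a and Zfp185. Ces2g has close paralogs whose reads the counting could share, and the wide Scpep1 locus in the file overlaps Scpep1os. Fap and Dpp4 encode related serine proteases of the cell surface and lie near each other on chromosome 2 (62500945 to 62574021 and 62330073 to 62412231). Fap was at 1.68 and 1.26 FPKM in Pc against 7.17 and 13.6 FPKM in Epi, and at 0.200 and 0.472 FPKM in DC against 18.3 and 27.7 FPKM in Fb. Dpp4 was at 0.972 and 0.789 FPKM in Pc against 4.58 and 5.09 FPKM in Epi, and at 0.201 and 0.155 FPKM in DC against 1.34 and 2.30 FPKM in Fb. Both genes were low in every follicle library, without overlap with the non-follicle libraries of the tissue. As both were picked by their calls in each tissue, that is a description only. Tmem45a, a membrane protein gene, was at 1.997 and 1.09 FPKM in Pc against 11.8 and 16.1 FPKM in Epi, and at 1.70 and 2.67 FPKM in DC against 10.4 and 16.4 FPKM in Fb, so the levels were alike in both tissues. Scara5, a ferritin receptor gene, was at 1.36 and 0.475 FPKM in Pc against 6.56 and 4.78 FPKM in Epi, and at 0.286 and 0.313 FPKM in DC against 8.10 and 8.25 FPKM in Fb. The average was -3.15 for Fap (SE 0.23, limma adjusted p = 1.66e-05), -2.36 for Tmem45a (SE 0.24, limma adjusted p = 9.00e-05) and -2.32 for Scara5 (SE 0.19, limma adjusted p = 2.54e-05). Tmem45a kept both calls in every alternative and every fit with a library left out. The Pc calls of Fap, Dpp4 and Scara5 were each lost without 2 of the 4 epithelial libraries, Pc replicate 2 among them, and the dermal call of Dpp4 without Fb replicate 2. These Pc calls were also lost with a pseudocount of 0.1, and those of Fap and Scara5 with only the 8 libraries fitted. The other 10 averaged between -1.12 (Ces2g) and -1.88 (Nav3). They include genes of the actin cytoskeleton (Ablim1, Nebl), the glutathione transferase gene Mgst1 and the secreted factor gene Metrnl.

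A further 13 genes were lower by at least 1 in both tissues with a called average but missed a call in 1 or both tissues: Fos, Snora31, Plagl1, Sepp1, Cd109, Ndufa4l2, Thbd, Mboat1, Zfp36, Ch25h, Ltbr, Lyz2 and Krt1. The Snora31 locus in the file is far wider than the gene and overlaps Tpt1. Fos and Zfp36 are immediate early genes, switched on within minutes by growth factors or handling. Fos was at 6.18 and 2.24 FPKM in Pc against 19.2 and 12.5 FPKM in Epi, and at 7.76 and 4.52 FPKM in DC against 55.7 and 24.6 FPKM in Fb. Replicate 1 was the higher in all 4 fractions, and its average was -2.12 (SE 0.40, limma adjusted p = 0.00414). With the replicate block Fos, Plagl1, Sepp1, Cd109, Ndufa4l2, Thbd, Mboat1, Zfp36, Ch25h and Lyz2 were called lower in both tissues, and Snora31 lost its dermal call. Of 21 immediate early and stress genes tested, 20 had a negative average and 7 were called lower, among them Jun (-1.01), Fosb (-1.52), Klf2 (-1.99) and Ier3 (-1.32). The median average was -0.85 for the list and -0.02 for all rows. A lower average was called in 3.15% of all rows. In DC 10 of the 21 were called lower and in Pc 1, Zfp36 at 11.0 and 6.31 FPKM against 38.03 and 27.2 FPKM in Epi. Over all rows 9.2% were called lower in DC and 1.37% in Pc. The 7 became 3 without Pc replicate 2, Epi replicate 1, DC replicate 2 or Fb replicate 1, and the 10 became 5 without DC replicate 2 and 4 without Fb replicate 1. The Zfp36 call was lost without any 1 of the epithelial libraries. The macrophage and leukocyte markers had a summed level over 14 genes of 8.82 and 6.88 FPKM in Pc against 15.6 and 27.6 FPKM in Epi, and of 6.25 and 5.12 FPKM in DC against 8.45 and 10.9 FPKM in Fb. Tyrobp and Lyz2, which has a near-identical paralog, were the 2 of 12 tested members with a called lower average, lost without Fb replicate 2 for both and without Pc replicate 2 for Tyrobp and Epi replicate 2 for Lyz2. C1qa was listed at 0 in 5 of the 8 libraries, and Csf1r and Lyz2 were listed at 0 in DC replicate 1. The part of these cells in the lower levels was not tested.

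Lef1, the DNA-binding partner of beta-catenin, stood higher on the follicle side of both tissues but was called in only 1. It was at 89.3 and 84.8 FPKM in Pc against 54.6 and 50.3 FPKM in Epi, and at 157 and 121 FPKM in DC against 27.1 and 20.3 FPKM in Fb. The Pc libraries lay above the Epi libraries and the DC libraries were several times the Fb libraries. The epithelial difference was 0.72 (SE 0.19, limma adjusted p = 0.104), the dermal one 2.50 (SE 0.19, limma adjusted p = 3.08e-06), and the interaction 1.78 (SE 0.27, limma adjusted p = 0.000832). With the replicate block the epithelial difference had a limma adjusted p of 0.00493 but lay under the size required for a call. Of 16 Wnt targets and effectors the average was called higher for Lef1 and lower for Lgr5 and Sp5, and none was called in the epithelium by limma, with or without the replicate block, although 2 had an unadjusted p under 0.05. Over all rows 2.17% had a called higher average and 3.15% a lower one. Sp5 lost its call without Pc replicate 2, DC replicate 2 or Fb replicate 1. Axin2, a direct target in most tissues, was at 19.6 and 13.6 FPKM in Pc against 21.0 and 18.7 FPKM in Epi. In the dermis Axin2 was at 54.8 and 40.3 FPKM in DC against 36.1 and 18.6 FPKM in Fb, and neither difference was called (limma adjusted p = 1 and 0.136). With the replicate block its interaction of 1.09 was called (limma adjusted p = 0.00198, against 0.203 without). Its dermal difference of 0.83 then had a limma adjusted p of 0.000809 but lay under the size required for a call. Among the secreted Wnt inhibitors, 6 of 16 had a called interaction, and Wif1 (interaction 0.03, limma adjusted p = 0.989) was not among them. The share of all rows was 14.1%. Dkk4 was at 20.1 and 18.1 FPKM in Pc against 4.54 and 3.77 FPKM in Epi, and at most 0.0888 FPKM in the dermal libraries. Frzb was at 45.0 and 44.7 FPKM in DC against 0.578 and 0.877 FPKM in Fb, and at most 0.176 FPKM in the epithelial ones. Sfrp1, at 7.13 and 5.66 FPKM in DC against 42.3 and 51.1 FPKM in Fb, was lower in the condensate, but at 13.3 and 19.4 FPKM in Pc against 10.9 and 9.70 FPKM in Epi was not called in the placode (limma adjusted p = 0.608). Of the 16 inhibitors tested 3 had a called average that was higher and 4 one that was lower, which became 2 without DC replicate 2 or Fb replicate 2. Among R-spondins, which amplify Wnt signals, Rspo3 had a positive average (1.63) and Rspo1 a negative one (-1.42), both set in the dermis.

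Of 15 hedgehog genes tested 4 were called higher in DC, among them the readout genes Ptch1, Gli1 and Hhip, and 5 lower. The shares of all rows were 6.13% and 9.2%. In the epithelium Ptch1, Gli1 and Hhip were positive and not called. The ligand gene Shh, drawn wide in the file, was at 2.64 and 1.33 FPKM in Pc against 0.674 and 0.0457 FPKM in Epi, and listed at 0 in all DC and Fb libraries. Ptch1, the receptor and the standard target, was at 329 and 294 FPKM in DC against 38.5 and 24.0 FPKM in Fb, and at 38.8 and 26.6 FPKM in Pc against 26.2 and 18.3 FPKM in Epi. The DC libraries stood far above the rest, whereas the lower Pc library barely exceeded the higher Epi library. Its average was 1.92 (SE 0.22, limma adjusted p = 0.000202) and its interaction 2.78 (limma adjusted p = 0.00125). Gli1 and Hhip had averages of 1.53 and 1.57. The Gli1 locus in the file is wider than the gene and overlaps Arhgap9. The Gli1 average was not called without Pc replicate 1, Epi replicate 2, DC replicate 1 or Fb replicate 2. With the replicate block Gli1 (limma adjusted p = 0.000761) also had a called interaction. All 15 hedgehog genes were positive in the epithelium, with a median of 0.41 against 0.00 for all rows, and 1 was called, Shh, which lost the call without Pc replicate 1 and without Epi replicate 2. The co-receptor genes Gas1 and Cdon went against the targets. Gas1 was at 10.1 and 6.50 FPKM in DC against 102 and 77.8 FPKM in Fb, and at 53.6 and 38.1 FPKM in Pc against 35.8 and 19.7 FPKM in Epi, with an interaction of -4.05 (limma adjusted p = 0.000624). Of the 15 genes 2 had a called interaction more positive and 5 more negative in the dermis, against 5.89% and 8.19% of all rows.

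Bmp4 was at 540.3 and 374 FPKM in DC against 25.7 and 18.8 FPKM in Fb, and at 3.23 and 3.59 FPKM in Pc against 3.65 and 2.83 FPKM in Epi. Bmp7 was at 285 and 134 FPKM in DC against 9.09 and 4.63 FPKM in Fb, and at 67.4 and 38.7 FPKM in Pc against 48.7 and 32.2 FPKM in Epi. For both the DC libraries were the highest of the 8, and Pc and Epi overlapped, with interactions of 4.23 for Bmp4 (limma adjusted p = 2.04e-05) and 4.34 for Bmp7 (limma adjusted p = 0.00114). Bmp2 was at 10.4 and 13.8 FPKM in Pc against 4.44 and 5.04 FPKM in Epi, and at 2.63 and 2.97 FPKM in DC against 4.21 and 4.34 FPKM in Fb. Its interaction was -1.66 (limma adjusted p = 0.0325), a call lost in each fit with a library left out except that without Pc replicate 1, and the placode difference was called only with the replicate block (limma adjusted p = 0.0181, against 0.134 without). Of 17 BMP ligands and antagonists 3 had a called interaction more positive in the dermis and 8 more negative. Over all rows the shares were 5.89% and 8.19%. Pdgfa, a growth factor gene, was at 297 and 240.4 FPKM in Pc against 183 and 122 FPKM in Epi, and at 70.1 and 35.6 FPKM in DC against 9.97 and 4.66 FPKM in Fb. It was higher on the follicle side without overlap in both tissues, with an average of 1.76 (SE 0.29, limma adjusted p = 0.00181) and an epithelial difference that was not called (0.83, limma adjusted p = 0.634). The semaphorin receptor gene Nrp2 was at 4.84 and 3.29 FPKM in Pc against 1.73 and 1.76 FPKM in Epi, and at 416 and 386 FPKM in DC against 24.3 and 21.97 FPKM in Fb, an average of 2.46 (SE 0.22, limma adjusted p = 4.09e-05). Of 28 follicle transcription factors 10 had a called higher average and none a lower one by limma, against 4 lower at an unadjusted p under 0.05 and 1 with the replicate block. All 10 were also called higher in DC, and none of them in Pc. Over all rows 2.17% had a called higher average and 3.15% a lower one.

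All 27 genes of the mitosis list were called lower in the condensate, and 4 of them higher in the placode. Aurka, the kinase of spindle assembly on chromosome 2 (172356196 to 172370506, mm10), was at 37.7 and 42.2 FPKM in Pc against 15.97 and 15.5 FPKM in Epi. In the dermis Aurka was at 2.56 and 4.68 FPKM in DC against 27.5 and 20.4 FPKM in Fb. The Pc libraries were the highest of the 8 and the DC libraries the lowest. The difference was 1.29 in the epithelium (SE 0.24, limma adjusted p = 0.0204) and -2.46 in the dermis (SE 0.24, limma adjusted p = 2.01e-05), and the interaction was -3.74 (SE 0.34, limma adjusted p = 3.13e-05). Ube2c, which helps the anaphase-promoting complex destroy cyclins, was at 287 and 306 FPKM in Pc against 127 and 157 FPKM in Epi, and at 22.7 and 21.5 FPKM in DC against 183 and 172 FPKM in Fb. All 27 mitosis genes tested were positive in the epithelium and negative in the dermis. The median was 0.93 in the epithelium, with 4 called higher (Aurka, Cdc25c, Prc1 and Ube2c), and -2.95 in the dermis, with 27 called lower. Over all rows 0.155% were called higher in Pc and 9.2% lower in DC. The interaction was called more negative in the dermis for all 27, between -2.86 (Mad2l1) and -4.35 (Aurkb), with a median of -3.98 against 0.02 for all rows. The 4 calls in Pc became 0 without any 1 of the 4 epithelial libraries, when the pseudocount was 0.1 and when the other fractions were left out of the fit, and 10 with the replicate block. The summed level of the list was 2143 and 2502 FPKM in Pc against 1117 and 1347 FPKM in Epi, and 149 and 226 FPKM in DC against 1527 and 1885 FPKM in Fb, so the placode was the highest and the condensate the lowest of the 4 fractions.

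Genes of DNA replication did not share the epithelial side. Of 24 tested none was called between Pc and Epi by limma, with or without the replicate block, none had an unadjusted p under 0.05, and 13 were positive and 11 negative, with a median of 0.01. Between DC and Fb 19 were called lower, against 9.2% of all rows, and all 24 were negative, with a median of -1.79. Mcm3, a subunit of the replicative helicase, was at 51.5 and 46.2 FPKM in Pc against 51.9 and 44.9 FPKM in Epi, and at 14.3 and 10.8 FPKM in DC against 57.0 and 44.8 FPKM in Fb. The Pc and Epi libraries overlapped and only the DC libraries stood apart. Pcna, the sliding clamp gene, was at 154 and 221 FPKM in Pc against 187 and 215 FPKM in Epi, and at 47.4 and 50.2 FPKM in DC against 149.9 and 185 FPKM in Fb. The interaction was called more negative in the dermis in 16 of the 24, against 8.19% of all rows.

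Promoters of the 2 lists are shown because the mitosis genes moved together and the replication genes moved with them in the dermis only. Sequences are RefSeq promoters (GRCm38.p6) from 250 bases before to 50 after the start, 5′ to 3′ on the gene's strand. Capitals mark matches, on either strand, to the CCAAT box (CCAAT), the cell cycle homology region or CHR (TTTGAA) and a Tcf/Lef motif (CTTTGAT or CTTTGAA, the second of which contains the CHR letters). The CCAAT box and the CHR are known from promoters of genes used late in the cell cycle. Aurka (chr2:172370521-172370820, minus strand) and Ube2c (chr2:164769679-164769978, plus strand) stand for mitosis and Mcm3 (chr1:20820263-20820562, minus strand) for replication.
Aurka: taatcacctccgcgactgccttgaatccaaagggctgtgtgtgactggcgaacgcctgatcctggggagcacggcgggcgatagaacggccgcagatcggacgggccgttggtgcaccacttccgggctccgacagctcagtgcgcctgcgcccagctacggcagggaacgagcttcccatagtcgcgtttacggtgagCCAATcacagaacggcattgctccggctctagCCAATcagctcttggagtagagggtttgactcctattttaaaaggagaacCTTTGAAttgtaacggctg
Ube2c: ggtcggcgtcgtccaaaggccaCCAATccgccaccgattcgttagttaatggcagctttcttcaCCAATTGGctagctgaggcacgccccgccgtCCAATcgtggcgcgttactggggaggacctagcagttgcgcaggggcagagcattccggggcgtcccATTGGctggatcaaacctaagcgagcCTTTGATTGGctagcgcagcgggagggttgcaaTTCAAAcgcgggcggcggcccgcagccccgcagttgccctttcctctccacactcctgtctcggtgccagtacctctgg
Mcm3: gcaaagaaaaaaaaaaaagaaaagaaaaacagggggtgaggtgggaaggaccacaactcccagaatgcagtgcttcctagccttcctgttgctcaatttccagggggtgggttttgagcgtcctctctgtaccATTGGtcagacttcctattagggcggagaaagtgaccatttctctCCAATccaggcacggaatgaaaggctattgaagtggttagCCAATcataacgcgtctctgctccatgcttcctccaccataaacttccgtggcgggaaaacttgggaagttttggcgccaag
Aurka held 2 CCAAT boxes and 1 CHR, which lies inside its Tcf/Lef match, Ube2c 6 CCAAT boxes, 1 CHR and 1 Tcf/Lef match, and Mcm3 3 CCAAT boxes. Not every gene called lower in DC held both: Ccnb1 held 2 CCAAT boxes and no CHR by the letters searched (TTTGAA), and Birc5 held no match. Of 23 promoters of 22 mitosis genes found in the table, 82.6% held a CCAAT box and 65.2% a CHR, and of 21 promoters of 19 replication genes 61.9% and 9.52% did. The shares over all 32851 promoters were 37.4% and 17.9%. For FGF response, with 11 promoters of 9 genes, they were 54.5% and 0%. The Tcf/Lef motif was in 17.4% of the mitosis promoters, 0% of the replication promoters and 8.65% of all promoters. A match is a description of letters and not a bound site.

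Regulators of the cell cycle stood beside this. Cdkn1a, the gene of the CDK inhibitor p21 on chromosome 17 (29090986 to 29100722), was at 6.29 and 4.13 FPKM in Pc against 20.04 and 29.01 FPKM in Epi, and at 703 and 367 FPKM in DC against 17.5 and 9.35 FPKM in Fb. It was lowest in the placode and highest in the condensate. The difference was -2.04 in the epithelium (SE 0.37, limma adjusted p = 0.0165) and 5.20 in the dermis (SE 0.37, limma adjusted p = 2.04e-06), with an interaction of 7.24 (SE 0.52, limma adjusted p = 7.35e-06). The epithelial call was lost without Pc replicate 2, without either Epi replicate and with only the 8 libraries fitted. Cdkn1c, which encodes p57, was called higher in the dermis, at 1910 and 1154 FPKM in DC against 507 and 309.5 FPKM in Fb, and not in the epithelium, at 35.7 and 25.9 FPKM in Pc against 32.9 and 23.5 FPKM in Epi. Of 16 p53 targets 3 had a called interaction more positive in the dermis (Cdkn1a, Plk2 and Trp53inp1) and 3 more negative. The shares of all rows were 5.89% and 8.19%. Ccnd1, the cyclin D1 gene, was at 149 and 132 FPKM in DC against 95.6 and 85.3 FPKM in Fb and at 17.6 and 18.4 FPKM in Pc against 17.3 and 21.0 FPKM in Epi, with no call in either tissue (limma adjusted p = 0.115 in the dermis).

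**Figure D3:**
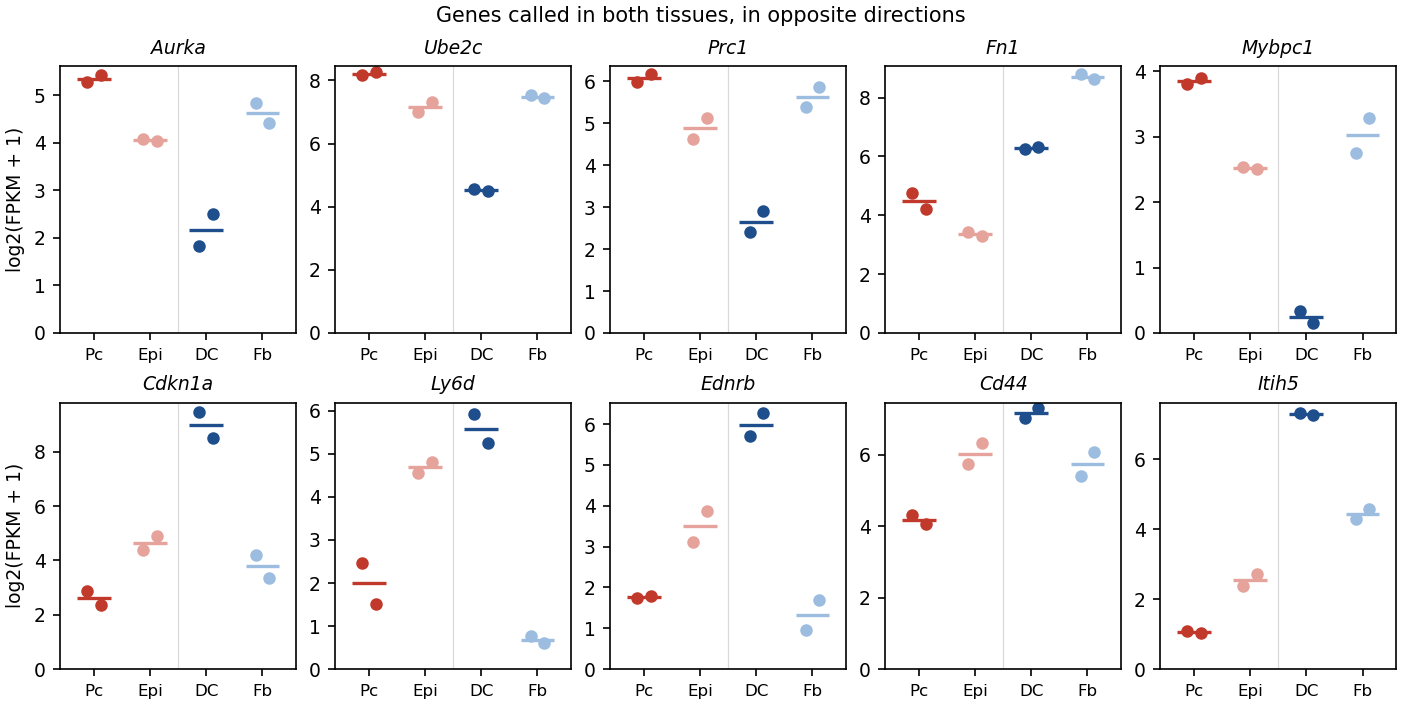
Log2(FPKM + 1) of 10 genes called in both tissues in opposite directions, with a point per library (2 per fraction) and a bar at the mean. The top row is higher in Pc than Epi and lower in DC than Fb (Aurka at 37.7 and 42.2 FPKM in Pc against 15.97 and 15.5 in Epi); the bottom row is the reverse.

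In all 22 genes (0.155%) were called in both tissues in opposite directions. Whether this exceeds the overlap of unrelated calls was not tested. By the stricter test, with the larger p-value of the tissues adjusted over all rows, 2 (0.0141%) were called, Ly6d and Ptgr1, at a limma adjusted p of 0.04907. At an unadjusted p under 0.05 in both tissues there were 356 rows, 49 with differences of at least 1. The count of 2 was 31 with the replicate block. It became 0 when the pseudocount was 0.1, when low rows were kept, when the fit held no other fraction and when libraries were rescaled to 1 total, 1 with quantile normalization, and 1 or 0 with any library left out. Ly6d, a surface protein gene of early epidermal differentiation, was at 4.54 and 1.85 FPKM in Pc against 22.6 and 27.1 FPKM in Epi, and at 59.9 and 36.9 FPKM in DC against 0.696 and 0.524 FPKM in Fb. Ptgr1, which inactivates prostaglandins and leukotrienes, was at 11.4 and 12.2 FPKM in Pc against 32.3 and 37.8 FPKM in Epi, and at 43.0 and 40.9 FPKM in DC against 12.4 and 11.6 FPKM in Fb. For both genes the condensate was the highest of the 4 fractions.

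By the looser rule 12 genes (0.0847%) were lower in Pc and higher in DC: Ank, Cd44, Cdkn1a, Chd7, Ednrb, Eef2k, Fam63a, Itih5, Kctd1, Ly6d, Pmel and Ptgr1. Cd44, the hyaluronan receptor gene, was at 18.7 and 15.6 FPKM in Pc against 52.4 and 78.6 FPKM in Epi, and at 130.1 and 156 FPKM in DC against 41.1 and 66.6 FPKM in Fb. Itih5, of a family that binds hyaluronan, was at 1.14 and 1.04 FPKM in Pc against 4.18 and 5.64 FPKM in Epi, and at 157 and 152 FPKM in DC against 18.4 and 23 FPKM in Fb. The dermal call of Cd44 was lost without DC replicate 2 and without Fb replicate 1. The interactions were 3.28 for Cd44 (limma adjusted p = 0.000714) and 4.34 for Itih5 (limma adjusted p = 8.41e-06). The opposite pattern, higher in Pc and lower in DC, was called in 10 genes (0.0706%): Aurka, Cdc25c, Cers4, Fn1, Mybpc1, Pif1, Prc1, Slc14a1, Sv2b and Ube2c. Of these Aurka, Cdc25c, Prc1 and Ube2c belong to the mitosis list. Fn1, the fibronectin gene, was at 26.1 and 17.6 FPKM in Pc against 9.75 and 8.88 FPKM in Epi, and at 75.6 and 79.4 FPKM in DC against 442 and 391 FPKM in Fb. Libraries of the follicle and non-follicle side did not overlap in either tissue for these 3 genes. Picking genes by calls in both tissues favours such a separation, so it is a description only. The number of genes, 22, became 9 or 4 when Pc replicate 1 or 2 was left out, 5 or 2 when Epi replicate 1 or 2 was left out, and 45 with the replicate block. With libraries rescaled the split of 12 and 10 became 8 and 11.

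Where the interaction was called, the tissue that carried it was mostly the dermis. Of the 835 rows more positive in the dermis 574 were called only between DC and Fb, 133 only as lower in Pc, 115 in neither tissue, 12 in both in opposite directions and 1 as lower in both. Of the 1160 more negative rows 978 were called only in DC, 10 only in Pc, 161 in neither, 10 in opposite directions and 1 as lower in both. The rows with the largest interactions were Sox18, Ly6d, Gal, Cdkn1a, Foxd1 and Ednrb among those more positive in the dermis. Sox18, a transcription factor gene, had 1313 and 346 FPKM in DC against 3.14 and 2.31 FPKM in Fb, and 2.47 and 0.581 FPKM in Pc against 2.62 and 2.07 FPKM in Epi. Its DC libraries lay far apart, and its interaction of 8.02 had an SE of 0.92 (limma adjusted p = 0.000144). Among those more negative in the dermis, beside the noncoding rows listed at 0, were the angiotensin receptor gene Agtr2 (-5.62, limma adjusted p = 0.000218) and the growth factor gene Ptn (-5.60, limma adjusted p = 6.33e-06). Ptn was at 56.9 and 72.6 FPKM in Pc against 37.3 and 45.6 FPKM in Epi, and at 2.81 and 4.22 FPKM in DC against 158 and 123 FPKM in Fb.

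**Figure D4:**
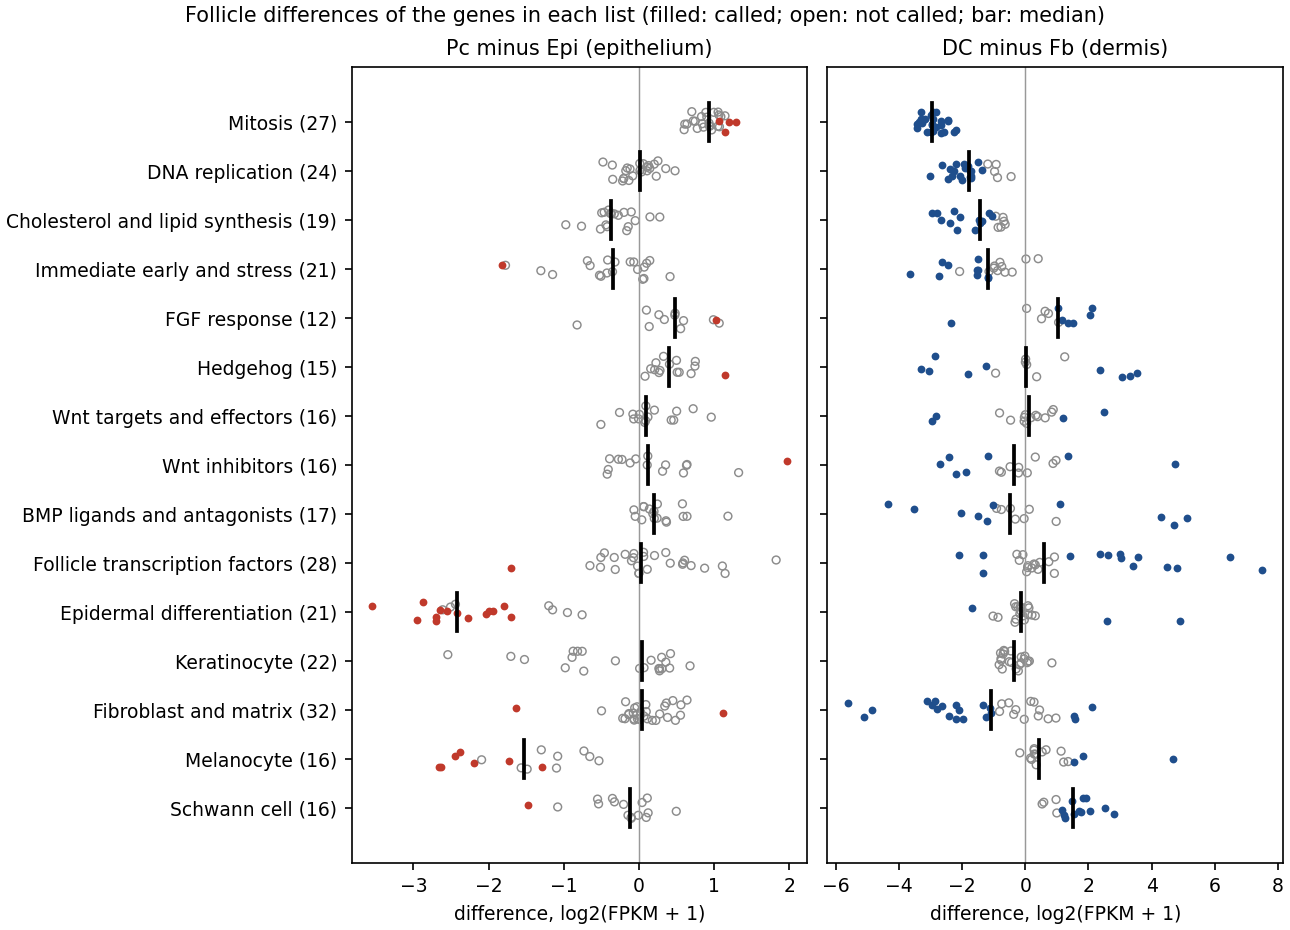
Differences of the tested genes of 15 lists, Pc minus Epi on the left and DC minus Fb on the right, on the log2(FPKM + 1) scale with different ranges; filled points were called, open points were not, and the black bar is the list's median. The mitosis list lies right of 0 in the epithelium (median 0.93) and left of 0 in the dermis (median -2.95), and epidermal differentiation is low in the epithelium only (median -2.42).

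Epidermal differentiation genes were lower in the placode. Of 21 tested 14 were called lower in Pc by limma and none higher, also at an unadjusted p under 0.05, with a median of -2.42, and 13 had a called interaction. Over all rows 1.37% were called lower in Pc and 14.1% had a called interaction. Dsc1, a desmosomal cadherin gene of the upper layers, was at 1.64 and 0.878 FPKM in Pc against 15.2 and 17.4 FPKM in Epi, and did not exceed 0.210 FPKM in the dermal libraries. Klf4, a transcription factor gene of the barrier, was among the 2 of the list that were called higher in DC, at 74.0 and 36.8 FPKM against 11.9 and 5.16 FPKM in Fb, while in Pc it was at 9.35 and 5.02 FPKM against 17.6 and 16.7 FPKM in Epi. Its interaction was 3.78 (SE 0.60, limma adjusted p = 0.00115), and the placode difference was called with the replicate block (limma adjusted p = 0.0174, against 0.306 without). The 14 calls in Pc became 7 without Pc replicate 2, 9 without Epi replicate 1, 8 without Epi replicate 2 and 4 with a pseudocount of 0.1, and the 13 interactions became 6 with that pseudocount. Keratinocyte genes in general showed no such difference, with none of 22 called in Pc or in DC by limma, 1 higher and 4 lower in Pc and 1 higher in DC at an unadjusted p under 0.05, 3 lower in Pc with the replicate block, and medians of 0.04 and -0.37. At their dermal levels, a summed 93.4 and 93.8 FPKM over 23 genes in DC against 117 and 108 FPKM in Fb, the keratinocyte list was not higher in DC.

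Markers of pigment and nerve-associated cells moved with the interaction. The melanocyte list summed to 58.2 and 53.8 FPKM in Pc against 243 and 348 FPKM in Epi, and to 69.8 and 140.1 FPKM in DC against 12.7 and 18.8 FPKM in Fb. Of its 16 genes 11 had a called interaction, 7 were called lower in Pc and 3 higher in DC (Ednrb, Pmel and Sox10). The shares of all rows were 14.1%, 1.37% and 6.13%. Gpr143 was listed at 0 in both Fb libraries. Ednrb and Pmel, whose locus in the file takes in the neighbouring Dgka, are among the 12 genes lower in Pc and higher in DC. The 7 calls became 3 without Pc replicate 1 and 1 without Pc replicate 2 or Epi replicate 2, and 12 with the replicate block. The 3 in DC became 8 without DC replicate 1. The 11 interactions became 7 without Pc replicate 2. The Schwann cell list summed to 511 and 337 FPKM in DC against 65.9 and 52.5 FPKM in Fb, with 12 of 16 called higher, and to 34.4 and 28.8 FPKM in Pc against 39.4 and 40.95 FPKM in Epi, with L1cam called lower. Mal was listed at 0 in Pc replicate 2 and S100b in Epi replicate 2. The nerve growth factor receptor gene Ngfr, which the condensate also uses, was at 444 and 208 FPKM in DC against 52.6 and 34.1 FPKM in Fb and made up most of the DC sum. The part of these cells in the results above was not tested.

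Genes of sterol synthesis and of the fibroblast matrix were lower in the condensate. Of 19 genes of cholesterol and lipid synthesis 13 were called lower in DC and none in Pc by limma, with or without the replicate block, where 17 were negative and 1 had an unadjusted p under 0.05. The medians were -1.44 in the dermis and -0.37 in the epithelium, and 7 had a called lower average. The shares of all rows were 9.2% lower in DC, 3.15% with a lower average and 8.19% with an interaction more negative in the dermis. Idi1 was at 2.97 and 2.98 FPKM in DC against 26.5 and 33.3 FPKM in Fb, and at 15.2 and 23.1 FPKM in Pc against 20.8 and 31.9 FPKM in Epi. Its average was -1.69 (SE 0.23, limma adjusted p = 0.000585) and its interaction -2.51 (limma adjusted p = 0.00303). The 11 called interactions of the list became 6 without Epi replicate 1 and 7 without Pc replicate 1 or Fb replicate 1. Of 32 fibroblast and matrix genes 17 were called lower and 3 higher in DC, and in Pc Fn1 was higher and Dpp4 lower. Over all rows 9.2% were called lower and 6.13% higher in DC. On the average 11 of the 32 were called lower and 2 higher, against 3.15% and 2.17% of all rows. Tnc, the tenascin C gene, was 1 of 2 with a higher average (1.09, SE 0.15, limma adjusted p = 0.000574), at 86.8 and 80.6 FPKM in DC against 30.4 and 26.2 FPKM in Fb, and at 4.86 and 3.998 FPKM in Pc against 2.74 and 2.23 FPKM in Epi. No gene of the glycolysis list, of 18 tested, was called by limma in either tissue, on the average or in the interaction, with or without the replicate block. At an unadjusted p under 0.05 there were 1 higher in Pc, and 1 higher and 5 lower in DC.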

How the data were processed

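RNA from sorted fractions of embryonic day 14.5 mouse skin was amplified from 6 ng (RIN at least 8.8) with a NuGEN kit and sequenced as 16 barcoded libraries, per the labels' protocols. The authors deposited 1 table of FPKM per gene, made with TopHat2 2.0.3, Bowtie2 and Cufflinks 2.1.1 on mm10, per the submitters' processing notes. FPKM are not counts, so no count model was used, and depth in fragments is unknown; it limits the precision of low genes. Of 23235 rows, 14171 with at least 1 FPKM in at least 2 of the 16 libraries were tested; 4114 rows are 0 throughout, and 24 tested rows that share a symbol are not named. Values were fitted as log2(FPKM + 1) in limma 3.58.1 (R 4.3.3), with a mean per fraction over all 16 libraries and moderated, trended, robust variances, and p-values were adjusted by Benjamini-Hochberg over all rows. The contrasts were Pc minus Epi, DC minus Fb, their average, and their difference (the interaction). The within-tissue comparisons share no library, but the average and interaction reuse theirs. Same-numbered libraries deviated from their fraction means together (correlations from 0.411 to 0.656 over the 6 pairs of fractions), so the numbers were read as pairing and the replicate block was fitted as an alternative. The fit was tested on simulated data with noise drawn independently for each library. That test therefore does not cover the shared deviations of same-numbered libraries. Named genes were up to 6 each way by size among called averages and interactions with at least 10 FPKM, all genes called in both tissues (a rule added after the values were seen), a fixed set of signalling and cell cycle genes, and list members. The members and lists were chosen with earlier results of these data known. Alternatives were the pseudocount, the filter, the libraries fitted, rescaling, quantile normalization, plain variances, the block, and each library left out. A few genes are not reported here.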

Additional observations from a re-analysis of the deposited data

Results flagged for a closer look

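These results differed between the tissues by the limma test of the interaction, (DC minus Fb) minus (Pc minus Epi), on the log2(FPKM + 1) scale. The test called 1995 genes, 14.1% of all rows. Among them were 27 of the mitosis list, 16 of the DNA replication list and 13 of the epidermal differentiation list.

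Of the genes called in both tissues in opposite directions, those lower in Pc and higher in DC had interactions of 3.37 for Ank, 3.28 for Cd44, 7.24 for Cdkn1a, 3.53 for Chd7, 6.39 for Ednrb, 2.76 for Eef2k, 2.46 for Fam63a, 4.34 for Itih5, 3.4 for Kctd1, 7.6 for Ly6d, 4.19 for Pmel and 3.22 for Ptgr1. Those higher in Pc and lower in DC had interactions of -3.74 for Aurka, -3.82 for Cdc25c, -2.47 for Cers4, -3.53 for Fn1, -4.11 for Mybpc1, -3.58 for Pif1, -4.17 for Prc1, -3.34 for Slc14a1, -3.48 for Sv2b and -4.01 for Ube2c. The loci of Fam63a and Pmel in the file take in neighbouring genes, and that of Bmp4, given below, overlaps Gm15217 and Gm15222.

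With the larger difference in the dermis, the interaction was 8.02 for Sox18, 7.35 for Gal, 6.51 for Foxd1, 4.23 for Bmp4, 4.34 for Bmp7, 2.78 for Ptch1, 2.45 for Trps1, 1.78 for Lef1 and 1.8 for Spry1, and -5.62 for Agtr2, -5.6 for Ptn, -4.02 for Birc5 and -2.68 for Spry2. With the larger difference in the epithelium, it was -1.9 for Dkk4, -1.66 for Bmp2, -1.38 for Fgf20, -1.18 for Edar, -1.14 for Shh and 2.78 for Dsc1. For Fap, lower in both tissues and more so in the dermis, it was -2.0. The call was lost in 7 of the 8 fits with a library left out for Bmp2 and in 6 for Spry1 and Shh, without Epi replicate 2 for Edar, and without Epi replicate 1 or Fb replicate 2 for Fap. With a pseudocount of 0.1 it was lost for Bmp2, Spry1, Shh, Edar, Dkk4, Fgf20 and Dsc1, and with only the 8 libraries fitted for Spry1 and Shh.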

How the results depend on the processing

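No called difference of a named gene changed sign in the alternatives run. The counts for DC minus Fb (2172), the average (754) and the interaction (1995) stayed within 1.5 times of these values, while those that rest on the epithelium moved. The 216 genes called between Pc and Epi became 31 with a pseudocount of 0.1, 83 with the 8 libraries alone and 368 with the replicate block, and ranged from 67 to 221 with a library left out. The shared direction was called in 0 genes and in 8 with the block. The strict opposite direction (2 genes) became 0 with the pseudocount of 0.1, with no filter, with the 8 libraries alone and with rescaling, 1 with quantile normalization, 31 with the block, and 0 to 1 with a library left out. The 15 genes called in both tissues in the same direction became 4 (pseudocount 0.1), 6 (8 libraries) and 29 (block), and ranged from 4 to 16. The 22 called in opposite directions became 5, 2 and 45 in the same order, and ranged from 2 to 28. The cause was not tested. Of the named genes called, 5 of 50 kept the call in every setting for Pc minus Epi, 110 of 136 for DC minus Fb, 83 of 111 for the average and 83 of 107 for the interaction. With 2 libraries per fraction and unknown depth, small epithelial differences are the least certain.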
